A study of Rattus norvegicus with 4 samples.

Results

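The suppressor of cytokine signalling (SOCS) family was followed through 4 cultures of rat astrocytes. Its 8 genes, Socs1 to Socs7 and Cish, were found by symbol among the probes annotated with a single gene, 8 of the 18166 genes so named. Each had 1 probe, none (0) shared a probe with another gene, and all 8 were among the 11790 genes past the filter on low values, which asked for a log2 value of at least 5.83 (the median of the whole table) on 1 or more arrays. Astrocytes, the main supporting glia of the brain, were grown from the cerebral cortices of Sprague-Dawley rat pups aged 1 day and held in serum-free medium to deplete microglia and meningeal cells. One culture received SHP siRNA, interferon-γ (IFN-γ) and a compound that the labels name only as GW. The next received control siRNA, IFN-γ and GW, another control siRNA and IFN-γ, and the last control siRNA with no treatment. Treatment lasted 3 h, and every culture was transfected, and untransfected cells were not analysed here. The sources used here give neither the doses nor how many pups went into a culture. Each condition had 1 array, so no p-value, standard deviation or interval between conditions can be given, every difference below compares single cultures without a replicate check, and the number of arrays limits the precision.

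SOCS proteins are feedback inhibitors of cytokine receptors. A cytokine such as IFN-γ or interleukin-6 brings Janus kinases (JAKs) together at its receptor, the kinases phosphorylate STAT transcription factors, and the STATs switch on target genes that include the SOCS genes themselves. Each family member has an SH2 domain, which binds phosphotyrosine, and a C-terminal SOCS box, which recruits elongins and a cullin ligase that marks bound proteins for degradation. SOCS1 and SOCS3 also carry a short region that blocks JAK activity directly. SOCS1 is best known as the brake on IFN-γ signalling, SOCS3 as the brake on receptors that signal through gp130 and STAT3, and CISH and SOCS2 as targets and brakes of STAT5. SOCS4 and SOCS5 are mainly linked to the epidermal growth factor receptor, and SOCS6 and SOCS7 to receptor tyrosine kinase and insulin signalling.

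Promoter windows of the family are shown first, as a description, and no link between motifs and courses was tested. RefSeq's table for rat build GRCr8 gave a window of 300 bases, from 250 before to 50 after the annotated start, for 5 of the 8 genes (Socs1, Socs3, Socs4, Socs6 and Cish). The windows of Socs1 (chr10:5389324-5389623, plus strand), Cish (chr8:116850719-116851018, plus strand) and Socs3 (chr10:103694719-103695018, minus strand) are printed 5′ to 3′ on the gene's strand, since these are the 3 matched genes that passed 2-fold in a comparison below. Capitals mark every match, on either strand, to the motifs searched: the interferon-γ activated site (GAS) TTCNNNGAA, to which STAT dimers bind, its form with 1 more spacer base TTCNNNNGAA, the interferon regulatory factor (IRF) site GAAANNGAAA, the AP-1 site TGANTCA, the cyclic AMP response element core TGACG, and the κB motif.
Socs1: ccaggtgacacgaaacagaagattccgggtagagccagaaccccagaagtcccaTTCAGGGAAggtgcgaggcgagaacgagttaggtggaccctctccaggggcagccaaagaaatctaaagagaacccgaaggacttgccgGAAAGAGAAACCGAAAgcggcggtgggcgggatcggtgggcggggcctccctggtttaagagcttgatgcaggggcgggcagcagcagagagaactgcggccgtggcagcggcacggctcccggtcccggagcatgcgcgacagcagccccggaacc
Cish: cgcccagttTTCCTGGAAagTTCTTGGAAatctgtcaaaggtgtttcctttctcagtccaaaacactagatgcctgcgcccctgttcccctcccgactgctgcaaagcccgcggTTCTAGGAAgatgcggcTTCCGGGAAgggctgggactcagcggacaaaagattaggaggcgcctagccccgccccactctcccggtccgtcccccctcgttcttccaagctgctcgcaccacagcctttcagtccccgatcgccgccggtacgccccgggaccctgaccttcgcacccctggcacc
Socs3: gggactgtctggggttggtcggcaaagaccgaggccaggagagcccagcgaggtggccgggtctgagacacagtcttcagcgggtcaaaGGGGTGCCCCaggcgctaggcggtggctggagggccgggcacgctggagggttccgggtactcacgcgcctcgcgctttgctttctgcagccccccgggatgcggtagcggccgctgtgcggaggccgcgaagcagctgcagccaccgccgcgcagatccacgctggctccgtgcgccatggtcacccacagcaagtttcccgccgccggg

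The Socs1 window held 1 GAS match, 196 to 188 bases before the start, and 2 IRF matches that overlap each other and lie between 107 and 92 bases before it. Of all 33469 promoter windows of that length, 8.87% held a GAS match, 3.92% an IRF match and 0.514% both. The Cish window held 4 GAS matches, in 2 pairs, and only 2 of the 33469 windows (Cish included) held as many. The Socs3 window held 0 GAS matches and 1 κB match on the reverse strand, a motif present in 4.18% of windows. Its last letters, from the final atg on, read as the first amino acids of the SOCS3 protein (MVTHSKF). The annotated start of Socs3 thus lies just before the coding sequence, and how much of this window is promoter is not known. The wider GAS form (7.28% of windows) and AP-1 (7.33%) matched in none of the 5 windows, and the element core TGACG (21.2%) matched in that of Socs4, on the reverse strand. The Socs6 window matched none of the motifs. These matches describe letters in 1 window per gene at the start that RefSeq annotates, and other starts were not searched. Whether the annotated start is the one used in astrocytes was not examined. A motif missing from a window, such as GAS from that of Socs3, may therefore lie elsewhere in the gene's promoter.

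Socs1 and Socs3 differed in opposite directions between the IFN-γ cultures with and without GW, and between the GW cultures with SHP siRNA and control siRNA. Socs1 had log2 values of 7.88 with SHP siRNA, IFN-γ and GW, 6.73 with control siRNA, IFN-γ and GW, 8.60 with IFN-γ alone and 6.70 untreated. It was therefore high with IFN-γ, nearly as low with GW as without any treatment, and in between with SHP siRNA. Socs3 had 9.84 with SHP siRNA, IFN-γ and GW, 10.82 with control siRNA, IFN-γ and GW, 9.05 with IFN-γ alone and 8.76 untreated. Here the culture with control siRNA, IFN-γ and GW stood highest, the SHP siRNA culture came next, and the other cultures with control siRNA lay close together. In a bulk culture, fewer cells of a type and less RNA per cell cannot be told apart.

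Socs2 and Cish, the pair linked to STAT5, shared a different course. Socs2 had 7.58 with SHP siRNA, IFN-γ and GW, 7.58 with control siRNA, IFN-γ and GW, 7.93 with IFN-γ alone and 6.49 untreated. Cish had 7.01 with SHP siRNA, IFN-γ and GW, 7.07 with control siRNA, IFN-γ and GW, 7.27 with IFN-γ alone and 6.18 untreated. For both genes the 3 cultures with IFN-γ lay together and above the untreated culture.

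The remaining members moved less. Socs5 had 7.90 with SHP siRNA, IFN-γ and GW, 8.23 with control siRNA, IFN-γ and GW, 7.67 with IFN-γ alone and 7.66 untreated, the same order as Socs3 on a smaller scale. Socs4 had 8.53 and 8.51 in the SHP siRNA and control siRNA cultures with IFN-γ and GW, 8.17 with IFN-γ alone and 8.07 untreated. Socs6 had 7.71 and 7.72 in the SHP siRNA and control siRNA cultures with IFN-γ and GW, 7.52 with IFN-γ alone and 7.24 untreated. In both genes the GW cultures were the higher ones. Socs7 had 7.47 with SHP siRNA, IFN-γ and GW, 7.68 with control siRNA, IFN-γ and GW, 7.47 with IFN-γ alone and 7.57 untreated, and no culture stood apart.

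**Figure D1:**
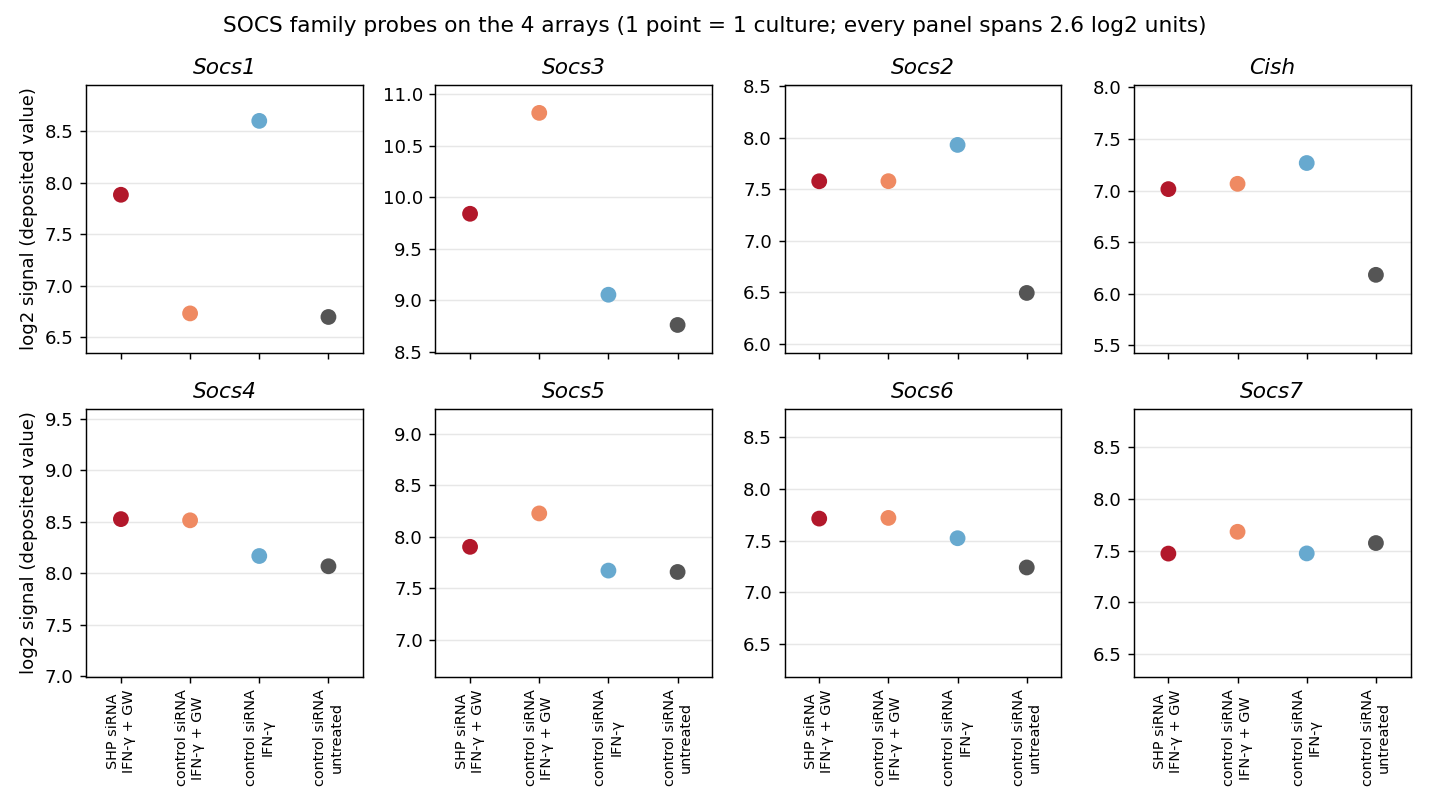
Deposited log2 signal (vertical axes) of the 8 SOCS family probes in the 4 cultures (horizontal axes; 1 point is 1 array). Every panel spans the same number of log2 units, centred on that gene, so distances between points compare across panels but heights do not. Socs1 is highest with IFN-γ alone (8.60), Socs3 with control siRNA, IFN-γ and GW (10.82), and Socs2 and Cish are lowest untreated (6.49 and 6.18).

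The span over the 4 arrays, highest minus lowest, separated the members. It was 2.06 log2 for Socs3 (4.16-fold) and 1.90 for Socs1 (3.74-fold), the 114th and 123rd widest of 11790 genes. Socs2 spanned 1.44 and Cish 1.08, the 222nd and 444th widest. Socs5, Socs6 and Socs4 spanned 0.57, 0.48 and 0.46. Socs7, at 0.21, was the single member below the median of all genes, which was 0.34, against a median of 0.83 for the family. The family was taken up with earlier results of these arrays known, so its place among all genes is a description.

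With IFN-γ against no treatment, both with control siRNA, 3 of the 8 members were at least 2-fold higher, the difference counted here, and 0 were at least 2-fold lower. Over all genes 1.9% reached 2-fold in either direction and 1.61% were 2-fold higher. Socs1 was 3.74-fold higher (log2 difference 1.90), Socs2 2.71-fold higher (1.44) and Cish 2.12-fold higher (1.08), the 62nd, 100th and 169th highest of 11790 differences. Socs3 differed by 0.29 and Socs6 by 0.28, Socs4 by 0.10, Socs5 by 0.01 and Socs7 by -0.10, all inside the middle 95% of genes, which ran from -0.48 to 0.67. The family's median was 0.29 and that of all genes -0.04, with 7 members above 0 and 1 below. Of all 11790 genes, 4731 lay above 0.

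When GW was added to IFN-γ under control siRNA, 2 of the 8 members reached 2-fold against IFN-γ alone, in opposite directions, beside 1.91% of all genes (0.958% higher and 0.95% lower). Socs1 was 3.65-fold lower with GW (log2 difference -1.87), the 11th lowest of 11790 differences, and Socs3 was 3.40-fold higher (1.76), the 39th highest. Socs5 differed by 0.55, just inside the middle 95% of genes (-0.75 to 0.62). Socs4 (0.35), Socs7 (0.21) and Socs6 (0.20) lay above 0, and Socs2 (-0.35) and Cish (-0.20) below. The median was 0.20 for the family and -0.05 for all genes.

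When SHP siRNA replaced control siRNA under IFN-γ and GW, Socs1 was the 1 member past 2-fold, on the higher side, beside 0.407% of all genes (0.144% higher and 0.263% lower). It was 2.22-fold higher with SHP siRNA (log2 difference 1.15), the 6th highest of 11790 differences. Socs3 was 1.97-fold lower (-0.98), the 36th lowest, and stood just short of 2-fold, which it passed after cyclic loess (-1.01). Socs5 (-0.32) and Socs7 (-0.21) lay below 0 but inside the middle 95% of genes (-0.46 to 0.48). Socs2 (-0.00), Cish (-0.05), Socs4 (0.01) and Socs6 (-0.01) had nearly the same value in both cultures. The sign of Socs4 turned after cyclic loess. The median was -0.03 for the family and 0.01 for all genes.

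**Figure D2:**
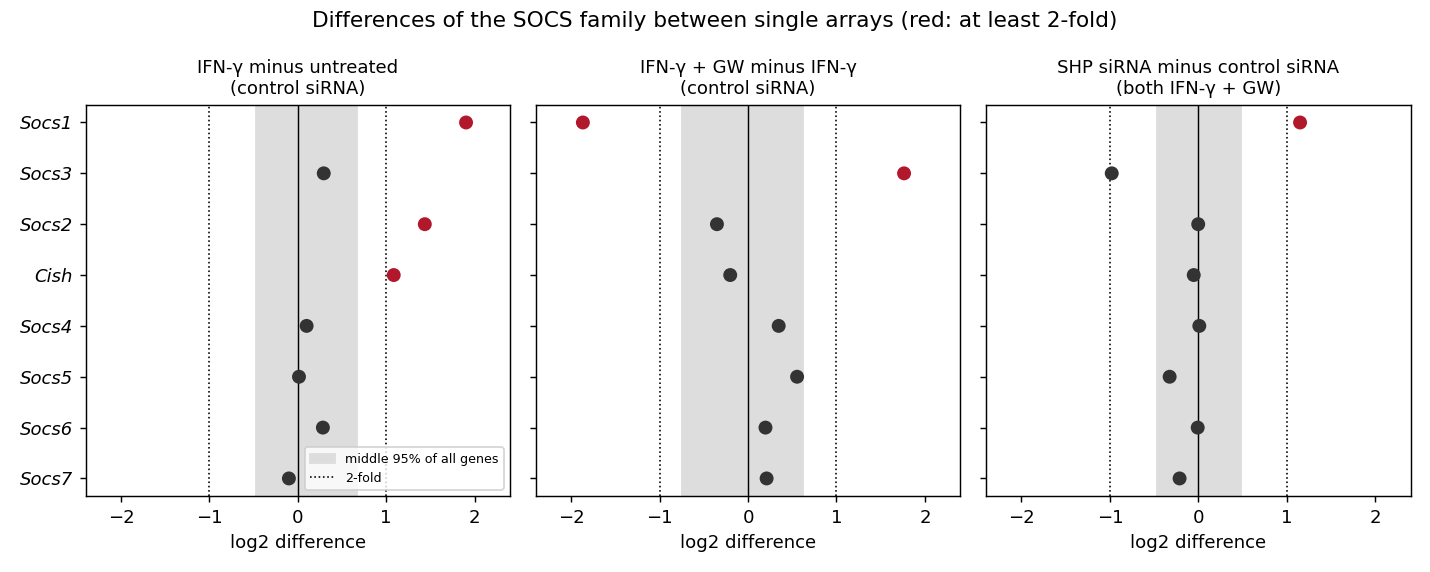
Log2 differences between single arrays (horizontal axes) for the 8 SOCS family genes (rows) in the 3 main comparisons. The grey band is the middle 95% of all 11790 genes, dotted lines mark 2-fold and red points lie past it. Socs1 lies at 1.90, -1.87 and 1.15, and Socs3 at 0.29, 1.76 and -0.98.

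These 3 comparisons share arrays. The IFN-γ array stands in the comparisons for IFN-γ and for GW, and the array with control siRNA, IFN-γ and GW in those for GW and for SHP siRNA, each with opposite signs, so an error of 1 array would appear in both, and the differences of a gene are given side by side without a test. Socs1 and Socs3 were set against each other because their opposite courses on these arrays were already known, so the contrast is a description. Subtracting the log2 difference of Socs3 from that of Socs1 gave 1.61 for IFN-γ against no treatment. The same subtraction gave -3.63 for GW added to IFN-γ and 2.13 for SHP siRNA against control siRNA. Under quantile normalization and cyclic loess these values stayed within 1.57 to 1.61, -3.69 to -3.63 and 2.13 to 2.15.

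Against other baselines the members sorted differently. In the culture with control siRNA, IFN-γ and GW, set against the untreated culture, Socs3 (log2 difference 2.06) and Socs2 (1.08) were at least 2-fold higher, beside 2.49% of all genes past 2-fold and 1.65% 2-fold higher. Cish was at 0.88 and Socs1 at 0.03 in that comparison, and all 8 members lay above 0, as did 4679 of all 11790 genes. With SHP siRNA, IFN-γ and GW set against the untreated culture, 3 members were at least 2-fold higher, beside 2.48% of genes past 2-fold and 1.59% 2-fold higher. They were Socs1 (1.19), Socs2 (1.08) and Socs3 (1.08), and these 3 genes stood nearly the same distance above the untreated culture. Against IFN-γ alone, 0 members in that culture reached 2-fold, beside 0.857% of genes (0.45% higher and 0.407% lower), with Socs1 at -0.72 and Socs3 at 0.79.

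For the 4 members that passed 2-fold in a main comparison, the genes of most similar course were sought over the 4 arrays. Each gene was centred on its own mean, and the Euclidean distance of the log2 values was taken to 11610 other genes, provisional symbols, olfactory, vomeronasal and taste receptors and small RNAs left out. With 4 arrays such a distance orders genes and tests nothing. The genes nearest to Socs1 were Msc, which encodes the transcription factor musculin (distance 0.27), the cytokine gene Il1b (0.28), the inflammasome sensor gene Nlrp3 (0.29), the chemokine gene Cxcl11 (0.30) and Clec4e, a lectin receptor gene of myeloid cells (0.31). Il1b had 10.06 with SHP siRNA, IFN-γ and GW, 9.18 with control siRNA, IFN-γ and GW, 11.12 with IFN-γ alone and 9.20 untreated. Clec4e passed the filter only on the IFN-γ array (6.37), which leaves the size of its differences uncertain.

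The genes nearest to Socs3 were Cryab, which encodes a small heat shock protein (distance 0.21), the pseudokinase gene Trib1 (0.21), the insulin receptor substrate gene Irs2 (0.22), Errfi1, which encodes a feedback inhibitor of the epidermal growth factor receptor (0.23), and the calcineurin regulator gene Rcan1 (0.28). Trib1 had 8.67 with SHP siRNA, IFN-γ and GW, 9.86 with control siRNA, IFN-γ and GW, 7.84 with IFN-γ alone and 7.73 untreated. Within the family, Socs5 was nearest to Socs3 (1.14) and Socs1 farthest (2.58).

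Socs2 and Cish had each other close by. Cish was the 8th nearest of all 11789 other genes to Socs2, and Socs2 the 21st nearest to Cish, at a distance of 0.26. The nearest to Socs2 were Birc2, an inhibitor of apoptosis gene (0.13), Pakap (0.14), the monocyte chemokine gene Ccl2 (0.15), the NF-κB subunit gene Relb (0.19) and the sphingosine phosphate receptor gene S1pr3 (0.21). The nearest to Cish were the transcriptional repressor gene Tgif1 (0.11), the zinc transporter gene Slc39a14 (0.12), the transcriptional coregulator gene Cited2 (0.14), Tbc1d10a (0.14) and the ubiquitin ligase gene Rnf19b (0.15). Ccl2 had 12.20 with SHP siRNA, IFN-γ and GW, 12.12 with control siRNA, IFN-γ and GW, 12.35 with IFN-γ alone and 11.07 untreated.

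**Figure D3:**
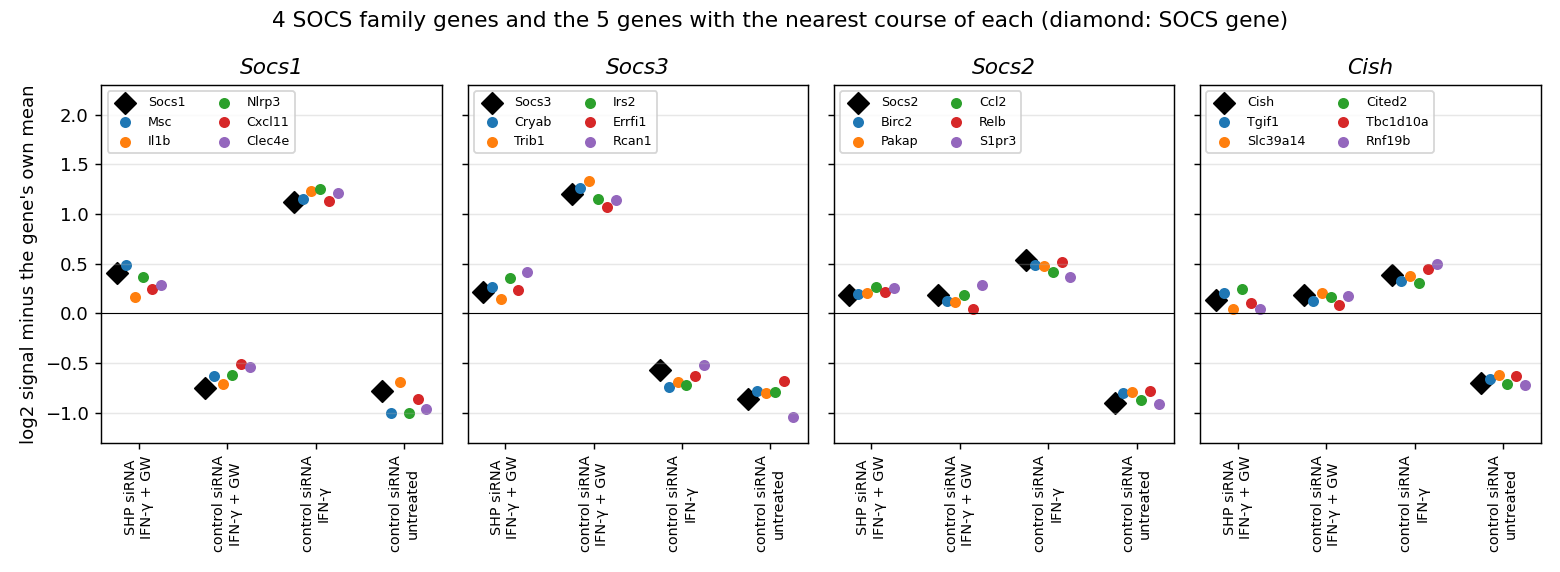
Log2 signal minus each gene's own mean over the 4 arrays (vertical axis) in the 4 cultures (horizontal axes), for Socs1, Socs3, Socs2 and Cish (diamonds) and the 5 genes nearest to each (circles, set side by side). The Socs1 panel is high with IFN-γ alone, the Socs3 panel with control siRNA, IFN-γ and GW, and the Socs2 and Cish panels are low in the untreated culture.

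The inputs of the pathway differed by cytokine. The list of interferon and gp130 cytokine ligands had 8 genes past the filter, and 3 of them exceeded 2-fold with IFN-γ, Il6 (log2 difference 3.73), the type I interferon gene Ifnb1 (3.20) and Lif (1.80). Over all genes 1.61% were 2-fold higher with IFN-γ, and 0.958% when GW was added to IFN-γ. With GW added to IFN-γ, Clcf1, a gp130 ligand gene, was the 1 gene of the list past 2-fold (1.09; with Lif, 2 genes after cyclic loess and after median centring), while Lif was at 0.93, Il6 at 0.49 and Ifnb1 at -0.82. With SHP siRNA against control siRNA, Lif was at -1.19, Il6 at -0.92, Clcf1 at -0.49 and Ifnb1 at 0.10, with 7 of 8 below 0 and a median of -0.45. Of all 11790 genes, 5705 lay below 0 there. Ifnb1 lay below 5.83 in the untreated culture, at 5.07, which leaves the size of its first difference uncertain.

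Among the receptor, JAK and STAT genes past the filter, Stat5a differed most in the comparisons for IFN-γ and GW. None (0) of 13 cytokine receptor genes past the filter reached 2-fold in any main comparison, where 1.9% (IFN-γ), 1.91% (GW) and 0.407% (SHP siRNA) of all genes did, and in a list of this size a count of 0 is near that background. The IFN-γ receptor subunit gene Ifngr2 differed by 0.84 with IFN-γ, by -0.63 with GW and by 0.33 with SHP siRNA. Csf2rb, the common β subunit of several receptors, was at -0.99 with GW, Osmr, the oncostatin M receptor, at 0.51 and Ifnar1 at -0.49. Of 9 JAK and STAT genes, Stat5a alone reached 2-fold, at 1.15 with IFN-γ and -1.28 with GW, and it was at 0.44 with SHP siRNA. The other STAT5 gene, Stat5b, was at -0.03, 0.10 and -0.59 in the same comparisons, Jak2 at 0.88, -0.68 and 0.29, and Stat6 at 0.22, -0.62 and 0.17.

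Genes associated with STAT3 and STAT5 were mixed. Among 13 STAT3-associated genes 3 were 2-fold higher or more with IFN-γ, Bcl3 (2.27), the kinase gene Pim1 (2.01) and Junb (1.94), and 3 with GW, Fos (2.97), Myc (1.35) and Cebpb (1.00). Cebpb stood at the threshold with GW, and 4 genes of the list passed there after cyclic loess. Over all genes 1.61% were 2-fold higher with IFN-γ and 0.958% with GW. The medians of the 13 genes were 0.14 with IFN-γ, 0.19 with GW and -0.24 with SHP siRNA, where 10 of 13 lay below 0 and 0 reached 2-fold. With SHP siRNA 5705 of all 11790 genes lay below 0, and 0.407% reached 2-fold. Fos, Junb and Myc also respond quickly to many other stimuli. Myc and Cebpb were named after their values were seen. Of 8 STAT5-associated genes 1 was at least 2-fold higher with IFN-γ, Pim1 again, and 0 reached 2-fold with GW or SHP siRNA. Over all genes 1.9% (IFN-γ), 1.91% (GW) and 0.407% (SHP siRNA) reached 2-fold in either direction. Bcl6, a repressor gene, was at 0.26, 0.69 and -0.16 in the 3 comparisons, the growth factor gene Igf1 at -0.54, -0.18 and 0.40, and Osm at 0.56, -0.07 and -0.13.

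Immediate early genes, transcribed within minutes of many stimuli, differed in the same direction as Socs3 with GW and with SHP siRNA. All 23 past the filter lay above 0 with GW, as did 4966 of all 11790 genes. Of the 23, 18 were at least 2-fold higher (median 2.02), beside 0.958% of all genes. The count was 20 after cyclic loess and 19 after median centring. All 23 lay below 0 with SHP siRNA, as did 5705 of all genes. There 9 were at least 2-fold lower (10 after quantile normalization), beside 0.263% of all genes, with a median of -0.78 for the list. With IFN-γ 10 of 23 were 2-fold higher or more (median 0.79), beside 1.61% of all genes, while Socs3 was at 0.29. The list was chosen with earlier results of these arrays known. The AP-1 subunit gene Fosb, at 0.23, 3.80 and -1.39 in the 3 comparisons, Egr4 (0.43, 3.14 and -1.88), Arc (-0.32, 3.42 and -1.72) and Gadd45g (-0.28, 3.01 and -0.93) had the highest differences of the list with GW. Arc lay below 5.83 with IFN-γ alone (5.42) and in the untreated culture (5.74), and Egr4 in the untreated culture (5.63), which leaves the size of those differences uncertain. What part the course of these genes has in the Socs3 values was not tested.

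Few of the other brakes on the pathway passed 2-fold. Of 15 other negative regulators of JAK and STAT, 1 was at least 2-fold higher with IFN-γ, the phosphatase gene Dusp2 (2.36), and 1 at least 2-fold lower with GW, Ptprc (-1.16), which is also a leukocyte marker. None (0) reached 2-fold with SHP siRNA, where Ptprc was at 0.59 and Usp18, which encodes an inhibitor of type I interferon receptors, at -0.56. These counts lie near the shares of all genes past 2-fold (1.9%, 1.91% and 0.407%). The list's medians were -0.02, -0.01 and -0.02 in the 3 comparisons, the first turning sign after cyclic loess and the second after quantile normalization, cyclic loess and median centring. The phosphatase gene Ptpn6 was at -0.64 with IFN-γ.

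The machinery that the SOCS box recruits had no gene past 2-fold. None (0) of 7 elongin and cullin ligase genes reached 2-fold in any main comparison, as for most genes. With GW 6 of 7 lay below 0, as did 6817 of all 11790 genes, and the median was -0.41, beside -0.05 for all genes. The elongin genes Elob and Eloc were at -0.74 and -0.51, Cul2 at -0.55 and Rnf7 at -0.41. Their medians were 0.03 with IFN-γ and 0.05 with SHP siRNA. Of 18 other SOCS box genes past the filter, 0 reached 2-fold in any main comparison. Over all genes 1.9% (IFN-γ), 1.91% (GW) and 0.407% (SHP siRNA) did, so a count of 0 is near that background. Wsb1 came nearest with GW (0.75), Spsb1 was at 0.76, Rab40c at -0.48 and Asb2 at -0.78 with IFN-γ, and the list's medians were -0.05, 0.12 and -0.02.

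**Figure D4:**
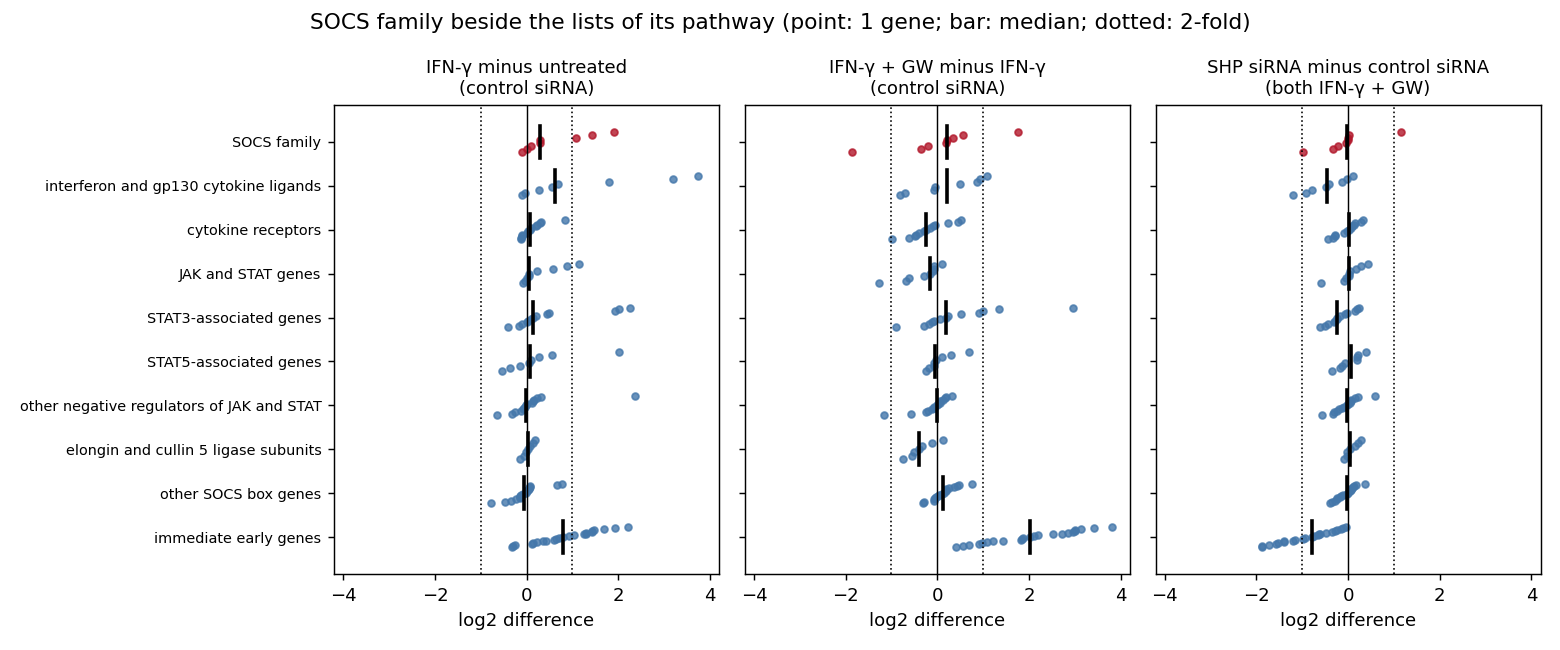
Log2 differences between single arrays (horizontal axes) of genes past the filter in the SOCS family (red) and in 9 related lists (blue) for the 3 main comparisons. Points are genes, bars are list medians and dotted lines mark 2-fold. Immediate early genes have medians of 0.79, 2.02 and -0.78, while the SOCS family holds members on both sides (medians 0.29, 0.20 and -0.03).

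The cultures held transcripts of astrocyte markers and of microglia markers. The astrocyte marker gene Gfap had 12.06 with SHP siRNA, IFN-γ and GW, 12.11 with control siRNA, IFN-γ and GW, 12.06 with IFN-γ alone and 12.03 untreated, and 10 of 11 astrocyte markers lay above 5.83 in every culture, with medians of differences of 0.07, -0.21 and 0.14. In those 3 comparisons Aqp4 was at 0.53, -0.23 and 0.71. All 18 microglia markers lay above 5.83 in every culture, and 0 were at 0. Their summed linear signal was 11729 with SHP siRNA, IFN-γ and GW, 10408 with control siRNA, IFN-γ and GW, 15230 with IFN-γ alone and 19435 untreated. With IFN-γ 17 of 18 lay below 0 (median -0.39), as did 7054 of all 11790 genes, while Socs1, Socs2 and Cish were higher. With GW 16 of 18 lay below 0 (median -0.48, Tyrobp at -1.22), as did Socs1 and 6817 of all genes. With SHP siRNA 15 of 18 lay above 0 (median 0.17), as did 6074 of all genes. What part the microglia markers have in the SOCS values was not tested. The medians of 8 meningeal and fibroblast markers were 0.03, -0.09 and 0.58 with Postn at 1.43 for SHP siRNA, those of 8 oligodendrocyte lineage markers 0.13, -0.12 and 0.11, and those of 4 neuron markers 0.13, 0.13 and -0.05. Nr0b2, the gene of the nuclear receptor SHP, had 3.45 with SHP siRNA, IFN-γ and GW, 5.20 with control siRNA, IFN-γ and GW, 5.14 with IFN-γ alone and 5.33 untreated, all below the filter value, which leaves the size of its difference uncertain. The nuclear receptor genes Nr1h2 and Nr1h3 differed by -0.46 and -0.36 with GW and by 0.09 and 0.04 with SHP siRNA, and Nr1h4 lay below 5.83 on all 4 arrays.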

How the data were processed

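Single-colour arrays were hybridised with biotin-labelled sense cDNA, per the labels' protocols, 1 array for each of 4 cultures. The authors deposited 1 value per probe and array (29489 probes, 1.14 to 13.4), read here as log2 signal from that range. How background was corrected, probes summarised and arrays normalized, and the log base, is not given in the sources used here. No detection calls were used.

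The platform annotation gives 1 symbol to 18511 probes, several to 575 and none to 10403. Of the 18511, 18394 took the current RefSeq symbol (GRCr8) through their Entrez identifier. The probe with the highest mean stood for a gene, and genes reaching 5.83 on any array were kept (11790 of 18166). A comparison subtracts the log2 values of 2 arrays and counts 2-fold differences, with no test. Counting was tested on simulated data.

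The members and the 16 gene lists were chosen with earlier results of these data known, and 1 further list is not reported here. Genes named are the members, up to 4 per list with the greatest difference in the 3 main comparisons, the 5 nearest courses, and Nr0b2 with Nr1h2, Nr1h3 and Nr1h4; Gfap was added to check the cell type label. Promoters are RefSeq's. Alternatives were quantile normalization and cyclic loess (limma 3.58.1, R 4.3.3), median centring, no filter, a filter on the mean, the mean of a gene's probes, and 1.5-fold and 3-fold thresholds. Other steps used Python 3.11.15.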

Additional observations from a re-analysis of the deposited data

How the results depend on the processing

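Each of the 8 members has 1 probe, so the choice of probe cannot change its values, and all 8 passed every filter tried. Of 144 member differences recomputed over the 6 comparisons and 3 alternatives of scaling, 144 moved by less than the robust spread of all genes' differences, at most by 0.13 log2. The sign turned in 4, all of differences within 0.02 of 0 (Socs4 once, Socs7 in 3). The 6 differences between the Socs1 and Socs3 courses kept their direction under quantile normalization and cyclic loess, the alternatives that could change them. Rescaling the same 4 arrays cannot support this contrast, since the pair was picked for its opposite courses on them. The counts of members past 2-fold changed as follows. At 3-fold, 1 member remained with IFN-γ against no treatment (0.696% of all genes) and 0 with SHP siRNA against control siRNA (0.0424%). Against no treatment, 1 remained with IFN-γ and GW (0.925%) and 0 with SHP siRNA, IFN-γ and GW (0.899%). At 1.5-fold, 2 members passed with SHP siRNA against control siRNA (2.63% of all genes). In the culture with SHP siRNA, IFN-γ and GW, 2 passed against IFN-γ alone (5.72%). They were Socs1 and Socs3 in both comparisons, in opposite directions. Against no treatment 3 passed with IFN-γ and GW (10.6%) and 4 with SHP siRNA, IFN-γ and GW (10.3%). Cyclic loess also gave 2 with SHP siRNA against control siRNA (0.424% of all genes), since Socs3 then reached -1.01. Median centring moved the split of all genes past 2-fold with GW to 129 higher and 88 lower, against 113 and 112 as deposited. The pseudocounts planned for linear values were not run, since the values are on a log scale. Leaving out a replicate was not possible with 1 array per condition, and no paired analysis was possible because no condition had a second array. Signal over background is unknown, which limits the differences of genes below 5.83 on an array, such as Nr0b2, Clec4e, Ifnb1, Arc and Egr4.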
